A study of Mus musculus with 4 samples.

Results

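Kidney genes of acid-base transport, 10 in all, were followed by symbol across cell types and time in single-cell RNA sequencing of mouse kidney. They are Slc4a1, Slc4a4, Slc26a4, Car2, Car4, Atp6v1b1, Atp6v1g3, Slc9a3, Rhcg and Foxi1, and 10 of 10 were found among the 31053 features. C57BL/6 mice of 10 weeks received a single intraperitoneal injection of recombinant human FGF23, a phosphate-regulating hormone, at 10 µg per mouse, and kidneys were taken at 1, 4 or 12 h. The control group is labelled 0 h with a dose of 0 µg, but the name of its deposited matrix speaks of saline at 1 h, so an injection in these control mice can be neither stated nor denied here. Each group was 1 library that pooled kidneys of male and female mice, and all mice were of the same strain. Kidneys were digested with enzymes, red cells were lysed and dying cells were removed by annexin V before capture. With 1 library per group no difference between times has a replicate check, and no p-value is given for one.

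The kidney reclaims filtered bicarbonate mainly in the proximal tubule. There a sodium-proton exchanger and carbonic anhydrases turn luminal bicarbonate into carbon dioxide, and a sodium-bicarbonate cotransporter returns bicarbonate to the blood. In the collecting duct, type A intercalated cells secrete acid with a vacuolar proton pump and return bicarbonate through an anion exchanger on the blood side. Type B cells carry a different anion exchanger, pendrin, on the luminal side and secrete bicarbonate.

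Foxi1 (chr11:34204338-34208089, minus strand, GENCODE vM21 on GRCm38) encodes the forkhead transcription factor that defines intercalated cells. Slc4a1 (chr11:102348824-102366203, minus) encodes the anion exchanger AE1 of type A cells. Slc26a4 (chr12:31519827-31559969, minus) encodes pendrin of type B cells. Atp6v1b1 (chr6:83742990-83758855, plus) and Atp6v1g3 (chr1:138273738-138289462, plus) encode subunits of the vacuolar proton pump. Car2 (chr3:14886273-14900770, plus) encodes cytosolic carbonic anhydrase, and Car4 (chr11:84957786-84966044, plus) the membrane-bound one. Rhcg (chr7:79593363-79617657, minus) encodes an ammonia channel of the distal nephron. Slc4a4 (chr5:88886818-89239653, plus) encodes the sodium-bicarbonate cotransporter and Slc9a3 (chr13:74121457-74169442, plus) the sodium-proton exchanger NHE3. No other annotated gene in the feature list overlaps any of the 10 on either strand.

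Promoters are shown for the 4 members with a RefSeq entry whose level was highest in intercalated-like cells, because forkhead factors bind a short core, TGTTTAC. Each runs from 250 bases before to 50 bases after the annotated start (RefSeq, GRCm38.p6), is written 5′ to 3′ on the strand of the gene, and has in capitals every match to the looser form TGTTTNC or its reverse complement.

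Foxi1, chr11:34208040-34208339, minus: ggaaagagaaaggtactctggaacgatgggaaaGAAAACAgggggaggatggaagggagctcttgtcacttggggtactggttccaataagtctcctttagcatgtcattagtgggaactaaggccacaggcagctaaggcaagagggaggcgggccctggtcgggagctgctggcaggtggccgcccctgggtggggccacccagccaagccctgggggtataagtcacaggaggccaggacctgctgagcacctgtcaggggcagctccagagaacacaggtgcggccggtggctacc
Slc26a4, chr12:31559935-31560234, minus: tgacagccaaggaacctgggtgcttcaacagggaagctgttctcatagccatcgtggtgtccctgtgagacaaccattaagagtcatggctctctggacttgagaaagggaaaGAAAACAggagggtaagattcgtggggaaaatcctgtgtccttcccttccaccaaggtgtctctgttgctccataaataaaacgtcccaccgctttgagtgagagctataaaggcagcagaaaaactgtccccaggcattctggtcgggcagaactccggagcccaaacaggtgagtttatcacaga
Atp6v1g3, chr1:138273488-138273787, plus: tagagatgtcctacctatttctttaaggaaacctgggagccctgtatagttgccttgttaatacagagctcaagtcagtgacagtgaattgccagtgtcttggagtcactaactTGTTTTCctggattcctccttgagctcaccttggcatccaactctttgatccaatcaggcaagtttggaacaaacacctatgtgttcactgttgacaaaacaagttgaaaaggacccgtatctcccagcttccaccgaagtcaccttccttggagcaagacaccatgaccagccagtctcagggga
Atp6v1b1, chr6:83742767-83743066, plus: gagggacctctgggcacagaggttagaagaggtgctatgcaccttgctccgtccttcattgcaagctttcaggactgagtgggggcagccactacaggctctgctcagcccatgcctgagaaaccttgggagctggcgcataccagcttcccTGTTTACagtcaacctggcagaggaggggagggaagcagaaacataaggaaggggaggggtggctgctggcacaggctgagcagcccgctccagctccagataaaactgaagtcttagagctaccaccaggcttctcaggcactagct

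Both strands were searched, and every TGTTTAC match is also a TGTTTNC match. Of 8 members with an entry, 1 (Atp6v1b1, 98 bases before the start) held TGTTTAC, against 3.65% of 32851 mouse promoters of the same length. TGTTTNC was found in 5 of the 8, the 4 above and Slc9a3, against 20.5% of all promoters. The 8 members have 9 promoter entries, and their counts are per gene while the shares are per promoter, so the units differ. The match lay 217 bases before the start of Foxi1, 137 before Slc26a4 and 136 before Atp6v1g3. These matches describe letters in a 300-base window, and the motif was chosen with the cell-type pattern of the genes known. Slc4a1 and Car2 have no entry.

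Depth was 139675666 to 158838728 UMIs (unique molecular identifiers, 1 per captured transcript) per library. After filtering and removal of doublet calls, 8758 to 10131 cells per library remained, at a median of 8754 to 11118 UMIs. Cells were grouped without use of the 10 genes and named from marker genes, so each class is called "like" its type. Libraries shared 26 to 39 barcodes per pair. A level is given as CPM, the UMIs of a gene per 1e6 UMIs of all genes, both summed over the cells of 1 class in 1 library. Intervals are exact 95% intervals and hold counting error alone, so the spread among mice and among digestions is not in them. All comparisons with 0 h share the same control library, the only 1 without FGF23. No control library is available at 4 or 12 h. A difference from 0 h therefore cannot be told apart from one of time of day, handling or library. The classes with at least 50 cells in every library were intercalated (IC-like, 73, 108, 227 and 131 cells at 0, 1, 4 and 12 h), principal (PC-like, 55 to 112), distal convoluted and connecting tubule (DCT/CNT-like, 435 to 576), thick ascending limb (TAL-like, 366 to 445), proximal tubule (PT-like, 6209 to 7198), endothelial, T/NK, B and neutrophil cells. All 12 intercalated markers and all 7 proximal tubule markers were detected in their own class.

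The members separated by cell type far more than by time. Of the 10, 6 had their highest level in IC-like cells, with the ranges over 4 libraries apart from the next class in each case. Foxi1 was at 355 to 449 CPM in IC-like cells and at 4.16 to 15.2 CPM in PC-like cells, the next class. Slc4a1 was at 369 to 551 CPM in IC-like cells, and PC-like cells, next in order, reached no more than 15.7 CPM. Slc26a4 was at 974 to 1198 CPM against at most 7.11 CPM in PC-like cells. In endothelial-like cells, taken as a class that should lack these exchangers, 0 UMIs of Slc4a1 were found in 316 to 689 cells per library, which allows up to 1.74 to 3.92 CPM, and 1 to 3 UMIs of Slc26a4.

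The pump subunits differed in breadth. Atp6v1g3 stood at 5232 to 6201 CPM in IC-like cells, at no more than 57.8 in PC-like cells and at 5.45 to 13.3 in DCT/CNT-like cells, after which the ranges of the classes overlapped. Atp6v1b1 stood at 492 to 678 CPM in IC-like cells, followed by PC-like cells at 173 to 247, and then by DCT/CNT-like cells (69.0 to 103) and TAL-like cells (68.3 to 94.0), whose ranges overlapped. TAL-like clusters were unlike for Atp6v1b1, from 6.31 to 9.20 CPM in cluster 20 up to 114 to 152 CPM in cluster 16. PT-like cells held 0.0998 to 0.248 CPM of Atp6v1b1. The G3 subunit was counted almost wholly in IC-like cells, with 80.6% of its UMIs, and in 1 unnamed cluster described later, with 17.4%.

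Car2 and Rhcg were shared between the collecting duct cell types. Car2 was at 2383 to 2786 CPM in IC-like, 1117 to 1297 in PC-like, 317 to 356 in PT-like and 177 to 208 in TAL-like cells, with all neighbouring ranges apart. PT-like cells, the most numerous class, held 75.9% of all Car2 UMIs and IC-like cells 11.8%. Among the classes, Rhcg was the only member highest in PC-like cells, at 671 to 991 CPM. IC-like cells followed at 406 to 507 CPM and DCT/CNT-like cells at 213 to 258 CPM. In the IC-like cells assigned to type A, as given below, Rhcg was at 552 to 692 CPM, a range that overlapped that of PC-like cells. In each of the 4 libraries the Rhcg level was higher in PC-like than in IC-like cells, by a mean of 0.90 on the log2 scale (SD 0.30, n = 4 libraries; exact sign-flip test, two-sided p = 0.125, the smallest that 4 pairs allow).

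The remaining members belonged to the proximal tubule and thick ascending limb. Slc4a4 was at 723 to 875 CPM in PT-like cells, and PC-like cells, the next, were at 41.0 to 105. Slc4a4 was also counted at 8.43 to 142 CPM in immune-cell classes, so low values elsewhere lie within what cells of other lineages showed. Slc9a3 was higher in TAL-like cells (109 to 170 CPM) than in PT-like cells (42.9 to 53.7 CPM) in 4 of 4 libraries, by a mean of 1.60 on the log2 scale (SD 0.26, n = 4; exact two-sided sign-flip p = 0.125). Car4 was at 161 to 196 CPM in PT-like and 138 to 173 in TAL-like cells, ranges that overlapped, and at no more than 17.5 CPM in every other class described.

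**Figure D1:**
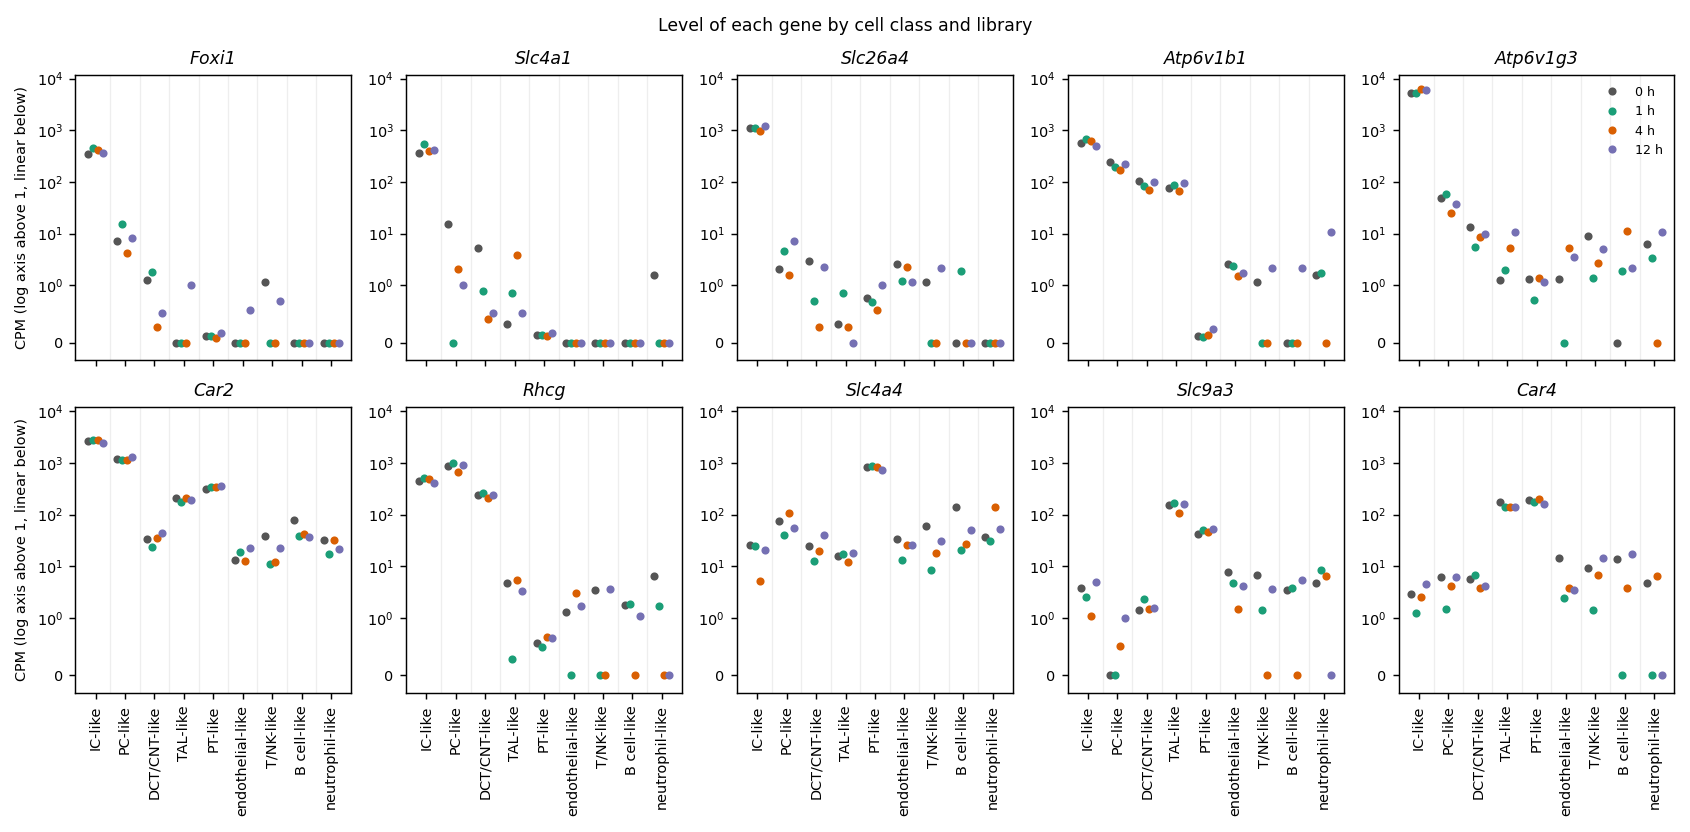
Level of each of the 10 genes in CPM (vertical axis, log above 1 and linear below) in 9 cell classes (horizontal axis), 1 point per library, coloured by hours after FGF23. Points of 1 class lie close together for the well-expressed genes, while classes differ by orders of magnitude, as for Atp6v1g3 at 5232 to 6201 CPM in IC-like cells against at most 57.8 CPM elsewhere.

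The genes whose level followed each member most closely were named by Pearson's r of log2(CPM + 1) over 36 points (9 classes in 4 libraries) among 11983 genes. This r is a description: points of 1 library share depth and free RNA, and points of 1 class share a cell type. Foxi1 was followed by Hmx2 (r = 0.99), a transcription factor gene used here as a marker of type B cells, and Slc26a4 by the same gene (0.97). As given below, the type B markers as a set were also counted in cells assigned to type A. Slc4a1 was followed by Aqp6 (0.97), an intercalated-cell aquaporin used as a type A marker. Atp6v1b1 was followed by Ckmt1 (0.98), a mitochondrial creatine kinase, and Rhcg by Hebp2 (0.97) and the ammonia channel gene Rhbg (0.96). Atp6v1g3 was followed by Hmx2 (0.95). Slc9a3 was followed by Cldn10 (0.92), a tight-junction claudin of the thick ascending limb. Slc4a4 was followed by Idh1 (0.91), Car4 by Slc25a48 (0.90) and Car2 by Sema3c (0.89).

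Within IC-like cells, Slc4a1 and Slc26a4 were found in different cells. Of 539 cells in all libraries, 182 held UMIs of Slc4a1 alone, 328 of Slc26a4 alone, 5 of both and 24 of neither. To compare libraries at 1 depth, each cell was thinned to 2000 UMIs and shallower cells were left out, which left 72, 103, 217 and 125 cells. Slc4a1 alone was then found in 30.6%, 35.0%, 30.9% and 25.6% of cells in order of time, with an exact binomial 95% interval of 20.2 to 42.5 in the control and 18.2 to 34.2 in the last library. Slc26a4 alone was found in 56.9% (44.7 to 68.6), 54.4% (44.3 to 64.2), 54.8% (48.0 to 61.6) and 62.4% (53.3 to 70.9). The intervals of the 4 libraries overlapped for both genes. Cells with both made up 1.39%, 0%, 0.922% and 0%, and the exact intervals of the 2 zeros, those of 1 and 12 h, reach 3.52% and 2.91%. At the same depth the endothelial-like share was 0% for Slc4a1 in all 4 libraries and 0% to 1.04% for Slc26a4, at a median of 2208 to 2436 UMIs per cell before thinning, against 11174 to 14294 in IC-like cells. Without thinning, Slc4a1 alone was found in 29.8% to 36.1% of cells and Slc26a4 alone in 58.6% to 64.1%.

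The 4 type A markers (Aqp6, Kit, Dmrt2, Adgrf5) and the 4 type B markers (Slc4a9, Insrr, Oxgr1, Hmx2) then divided the cells without use of the members. Each cell was assigned by the larger share of its subtype UMIs, a rule made after the cells had been seen. This gave 186 A-marker cells, 320 B-marker cells and 33 unassigned cells. A cell was unassigned if it had fewer than 3 subtype UMIs or equal shares. Of the assigned cells, 46 had a share between 0.25 and 0.75, near the 0.5 limit. Slc4a1 was present in 182 of the 186 A-marker cells and 3 of the 320 B-marker cells, and Slc26a4 in 4 and 318. The type B markers were not confined to B-marker cells: they summed to 577 to 824 CPM in A-marker and 1355 to 1797 in B-marker cells. The type A markers summed to 3096 to 4309 CPM in A-marker and 115 to 166 in B-marker cells. A-marker cells made up 34.3% (23.3 to 46.6), 36.5% (27.3 to 46.6), 40.3% (33.6 to 47.2) and 32.2% (24.0 to 41.3) of the divided cells in order of time. With 1 library per time these shares have no replicate check.

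**Figure D2:**
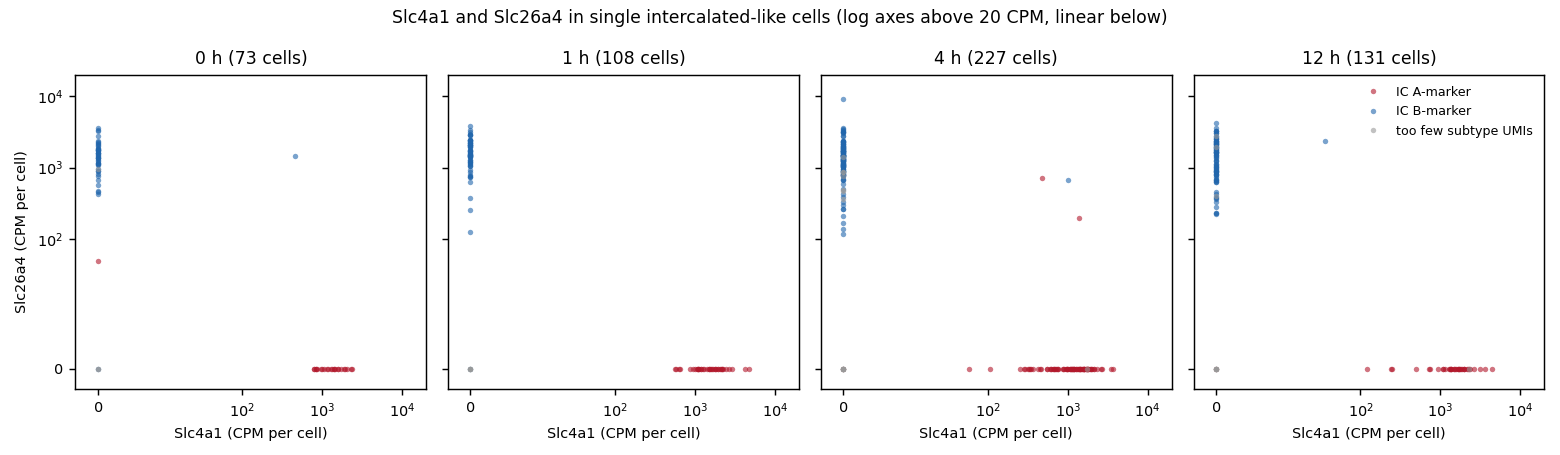
Slc26a4 (vertical axis) against Slc4a1 (horizontal axis) in CPM per single IC-like cell, 1 panel per library, with log axes above 20 CPM and linear below. Points are cells, red for A-marker, blue for B-marker and grey for cells with too few subtype UMIs or equal shares. Nearly all cells lie on 1 of the 2 axes, and 5 of 539 lie off both.

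The other intercalated members were present in both subtypes, at levels that differed. Atp6v1g3 was at 3854 to 5070 CPM in A-marker cells and at 5857 to 7087 in B-marker cells, lower in A-marker cells in 4 of 4 libraries by a mean log2 difference of -0.58 (SD 0.18). Car2 was at 2028 to 2309 in A-marker and 2481 to 3036 CPM in B-marker cells, a mean log2 difference of -0.35 (SD 0.08). Atp6v1b1 had the opposite order, at 662 to 864 CPM in A-marker and 429 to 589 in B-marker cells (mean log2 difference 0.47, SD 0.15). Rhcg was at 552 to 692 CPM in A-marker and 321 to 424 in B-marker cells (0.75, SD 0.23). For these 4 genes the ranges of the subtypes were apart, and the exact two-sided sign-flip p over the 4 libraries was 0.125, the smallest possible. Foxi1 ranges overlapped, at 317 to 425 against 335 to 471 CPM. In all 37 such within-library contrasts were computed for the members, and the lowest p adjusted over them (Benjamini-Hochberg) was 0.159. The 4 libraries are at different times, so the SD includes any difference between times.

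In IC-like cells after FGF23, no member with enough UMIs for a call differed from 0 h by 1.5-fold or more. A call needed a 1.5-fold difference or more and 100 UMIs or more in the pair of libraries together. Of the 10 members, 7 had that many UMIs, and 0 of 7 were called at 1, 4 or 12 h. Among all genes with that many UMIs in IC-like cells, 4.02%, 7.38% and 5.05% were called either way. Slc4a4, Car4 and Slc9a3 had too few UMIs in these cells, so the count does not cover them.

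Slc4a1 showed the widest move in IC-like cells, at 369, 551, 401 and 415 CPM at 0, 1, 4 and 12 h. The 1 h library stood above the other 3, with a log2 ratio of 0.58 (0.40 to 0.76), which is 1.49-fold. In A-marker cells alone Slc4a1 was at 1272, 1682, 1176 and 1528 CPM, and the ratio at 1 h was 0.40 (0.23 to 0.58). The median A-marker cell held 1293, 1507, 1134 and 1524 CPM of Slc4a1, with quartiles of 941 and 1615 CPM at 0 h. The 1 h ratio in IC-like cells lay past the limit with doublet calls kept, at 0.70, in female-called cells alone, at 0.71 (0.64 at 4 h), and under a mitochondrial limit of 25%, at 0.65. That last limit also put the later ratios at -0.10 and -0.40. In A-marker cells, of which it left 4, 9, 33 and 10, it turned the 1 h ratio to -0.29 and gave -0.45 and -0.87 at the later times, so the direction at 1 h depends on this limit. Red-cell markers summed to 20.5, 0, 3.33 and 16.6 CPM in A-marker cells, and their part in the Slc4a1 level was not tested.

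Foxi1 was at 355, 449, 423 and 358 CPM in IC-like cells. Its log2 ratios at 1 and 4 h were 0.34 (0.15 to 0.52) and 0.25 (0.08 to 0.42), and the 12 h library returned to the 0 h level at 0.01 (-0.18 to 0.20). At 1 h the ratio was 0.34 in both A-marker and B-marker cells. Under a mitochondrial limit of 25% the 1 h value became -0.05, with 12 control cells and 21 cells at 1 h left.

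Slc26a4 was at 1092, 1124, 974 and 1198 CPM. The 4 h library was lowest, with a log2 ratio of -0.17 (-0.27 to -0.06), and within B-marker cells that ratio was -0.06 (-0.16 to 0.04). The median B-marker cell held 1452, 1590, 1383 and 1467 CPM of Slc26a4. A mitochondrial limit of 25% left 12, 21, 97 and 33 IC-like cells and put Slc26a4 there at log2 ratios of -0.79, -0.65 and -0.91, past the 1.5-fold limit each time. That limit also altered the mix, with 4, 9, 33 and 10 A-marker and 7, 9, 51 and 16 B-marker cells left. In B-marker cells alone it gave -0.24, -0.46 and -0.68, past 1.5-fold at 12 h. Median mitochondrial shares in IC-like cells were 34.8%, 32.5%, 27.4% and 32.4%, and their part in these values was not tested.

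The pump subunits moved little. Atp6v1g3 was at 5337, 5232, 6201 and 6095 CPM, with the 4 h and 12 h libraries above the other pair by log2 ratios to 0 h of 0.22 (0.17 to 0.26) and 0.19 (0.14 to 0.24). In A-marker cells the 12 h ratio was 0.40 (0.29 to 0.50) and in B-marker cells 0.12 (0.07 to 0.17). Atp6v1b1 was at 577, 678, 608 and 492 CPM, highest at 1 h at 0.23 (0.09 to 0.38) and lowest at 12 h at -0.23 (-0.38 to -0.08). The pump subunits thus lay on opposite sides of the 0 h level at 12 h in IC-like cells as reported. Under a mitochondrial limit of 25%, Atp6v1g3 was at -0.02 at 4 h and -0.06 at 12 h. Atp6v1b1 at 12 h was between -0.29 and -0.13 in every alternative run, so under that limit both lay below 0 h. Within subtypes the 12 h ratio of Atp6v1b1 was -0.05 in A-marker and -0.32 in B-marker cells.

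Car2 was at 2674, 2745, 2786 and 2383 CPM in IC-like cells, and only the 12 h library lay below 0 h, at a log2 ratio of -0.17 (-0.24 to -0.10), with -0.19 in both subtypes. Rhcg was at 441, 507, 483 and 406 CPM. At 12 h it was 0.22 (-0.06 to 0.50) in A-marker and -0.32 (-0.54 to -0.10) in B-marker cells. In A-marker cells 0 of 6 members and in B-marker cells 0 of 6 were called at any time, against backgrounds of 5.84%, 9.35% and 7.73% and of 3.30%, 8.86% and 5.73% in order of time. Markers of other cell types moved within IC-like cells too: the DCT/CNT list summed to 1143, 469, 782 and 593 CPM and the PT list to 247, 131, 88.4 and 214 CPM, with all 7 markers of each detected. Slc4a4, a PT gene, was at 26.1, 24.6, 5.16 and 20.2 CPM in the same cells.

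**Figure D3:**
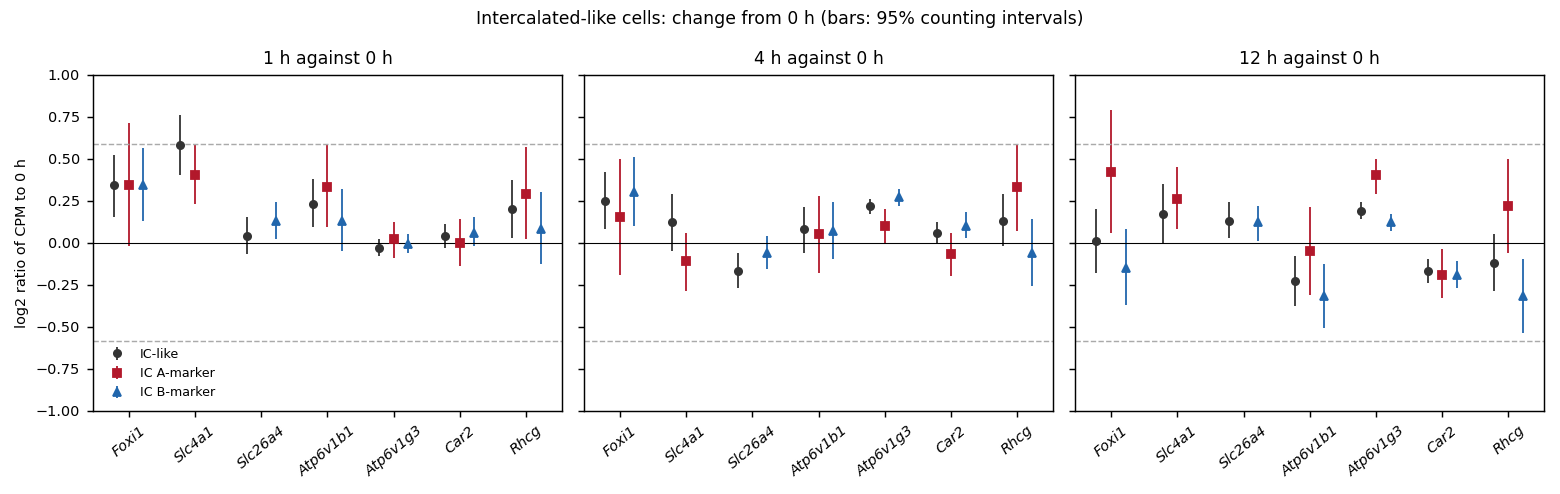
Log2 ratio of CPM to 0 h (vertical axis) for 7 members in IC-like cells (black), A-marker cells (red) and B-marker cells (blue) at 1, 4 and 12 h, with 95% counting intervals. Dashed lines mark 1.5-fold. All points lie inside them, with Slc4a1 at 1 h nearest, at 0.58.

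Of the other acid-base genes on the lists, 24 at 1 h, 28 at 4 h and 24 at 12 h of 53 had enough UMIs in IC-like cells. None was called at 1 or 12 h, and 1 was at 4 h. Over all genes tested, 4.02%, 7.38% and 5.05% were called at 1, 4 and 12 h, and at those shares a list of this size would hold few calls. The 1 called was Slc26a7, an anion exchanger gene of type A cells. It was at 12.6 CPM at 0 h and 35.7 at 4 h, a log2 ratio of 1.51 (0.67 to 2.47) from 13 and 97 UMIs. Of 17 other proton pump subunits, 14 or 15 had enough UMIs and 0 were called, beside the same shares. Their median log2 ratios were 0.04, 0.15 and -0.04, beside 0.04, 0.11 and 0.02 over all genes tested.

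An unnamed cluster of 145 cells held markers of both intercalated and principal cells (12 of 12 and 6 of 6 detected) at a median of 32764 UMIs per cell. Of its cells before removal, 9.94% were doublet calls. It held 41.1% of all Slc4a1 UMIs, 29.9% of Foxi1, 19.3% of Rhcg and 16.7% of Slc26a4, so it bears on all 4. Of its cells 73 held Slc4a1 alone, 44 Slc26a4 alone and 27 both. Slc26a4 there was at 483, 529, 157 and 510 CPM, with the 4 h library lowest at a log2 ratio of -1.62 (-1.82 to -1.41). Its type B markers went the same way, at 791, 798, 330 and 815 CPM, while its type A markers were at 1046, 1443, 1767 and 1300 CPM. With these cells added to the IC-like class, still 0 of 7 members were called at any time, and at 4 h Slc26a4 was at -0.53 and Foxi1 at -0.07.

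Proximal tubule cells carried Slc4a4, Car2, Car4 and Slc9a3. In PT-like cells as a whole these 4 stayed within 1.5-fold of 0 h. Of 6, 7 and 7 members with enough UMIs, 1, 0 and 0 were called, against a background of 3.10%, 11.0% and 8.72%. The 1 was Atp6v1g3 at 1 h, at 1.31 CPM and 0.743 CPM, a log2 ratio of -0.82 (-1.27 to -0.37). These are trace levels: endothelial-like cells were at 1.31 CPM at 0 h, from 1 UMI, and at 0 at 1 h, and reached 5.30 CPM at 4 h.

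The segments differed in every library. Markers divided the class into S1/S2-like (3554, 3830, 4635 and 4349 cells) and S3-like (2860, 2379, 2563 and 1874 cells) clusters. Slc4a4 was at 884 to 1240 CPM in S1/S2-like and 482 to 556 in S3-like cells (mean log2 difference 1.11, SD 0.18, n = 4). Car2 was at 504 to 610 against 84.2 to 135 CPM (2.31, SD 0.45), and Slc9a3 at 51.6 to 62.0 against 31.9 to 43.0 CPM (0.60, SD 0.17). Car4 had the opposite order, at 106 to 123 CPM in S1/S2-like and 241 to 284 in S3-like cells (-1.17, SD 0.07). For each the ranges were apart and the exact two-sided sign-flip p was 0.125, the smallest 4 pairs allow. The Car4 order was that of male-called cells, at 93.3 to 110 CPM in S1/S2-like and 249 to 303 in S3-like cells. It was reversed in female-called cells, at 113 to 132 and 37.2 to 61.2 CPM. Female-called cells were a small part of the S3-like cells, as given below, and the part of cluster placement in this reversal was not tested. Slc4a4, Car2 and Slc9a3 were higher in S1/S2-like cells of both called sexes.

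Slc4a4 in S1/S2-like cells was at 1240, 1169, 1136 and 884 CPM at 0, 1, 4 and 12 h. The 12 h library was the lowest, at a log2 ratio of -0.49 (-0.51 to -0.47), and it was lower than at 0 h in 9 of 10 S1/S2-like clusters. Cluster 1, the largest of these over the 4 libraries, went from 1708 to 1362 CPM between 0 and 12 h, and cluster 11 from 1892 to 1385 CPM. In male-called cells the 12 h ratio was -0.61 (-0.64 to -0.58), past the limit, and in female-called cells -0.36 (-0.38 to -0.33). Clusters at resolution 1.0 gave -0.60. In S3-like cells Slc4a4 was at 516, 556, 488 and 482 CPM, a 12 h ratio of -0.10 (-0.13 to -0.07), though with resolution 1.0 it was -0.66. None of 6 members was called in S1/S2-like cells at 12 h (0 of 5 at 4 h, 1 of 6 at 1 h, again Atp6v1g3 at trace level), against 6.58%, 10.5% and 2.82% of genes. The S1/S2-like cells held 253 CPM of red-cell marker UMIs at 12 h against 5.85 at 0 h, and their part in these values was not tested.

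Car2 had opposite courses in the segments. In S1/S2-like cells it was at 610, 567, 529 and 504 CPM, stepwise lower at each later time, with log2 ratios of -0.11 (-0.13 to -0.08), -0.21 (-0.23 to -0.18) and -0.28 (-0.30 to -0.25). It was lower than at 0 h in 9 of 10 clusters at 1 h and in 8 of 10 at 4 and 12 h. In S3-like cells it was at 84.2, 99.1, 134 and 135 CPM, with ratios of 0.24 (0.17 to 0.30), 0.67 (0.61 to 0.73) and 0.68 (0.62 to 0.75). Of 4 members with enough UMIs in S3-like cells, 0, 1 and 1 were called, in each case Car2 as higher, against 2.61%, 10.3% and 8.75% of genes called either way.

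The S3-like difference did not have the same size within clusters. Different clusters held the segment over time: cluster 0 had 1566, 1265, 214 and 37 cells, and cluster 3 had 129, 142, 1091 and 831 cells. Within cluster 0, Car2 was at 84.3, 93.6, 90.2 and 97.7 CPM, and within cluster 3 at 153, 152, 151 and 147 CPM. Cluster 5, with 515 to 674 cells in each library, was at 73.6, 80.5, 131 and 113 CPM, and cluster 14, with 243 to 311 cells, at 154, 179, 213 and 226 CPM. Car2 was higher at 4 and 12 h in clusters 5 and 14, and about level in clusters 0 and 3, of which the second has the higher Car2. S1/S2 markers in S3-like cells summed to 198, 242, 274 and 411 CPM (5 of 5 detected) and S3 markers to 1815, 1652, 1431 and 1114 CPM (5 of 5). The part of this shift in the Car2 value was not tested. At the coarser resolution of 1.0 the cluster that held most S3-like cells of the 4 and 12 h libraries took the S1/S2-like name, and the Car2 ratios in S3-like cells were 0.50 and 0.55, within the limit, as was the 4 h ratio under a mitochondrial limit of 25%, at 0.55. Female-called S3-like cells, 52 to 81 per library, gave -0.36 (-0.92 to 0.18) at 1 h, then 0.16 (-0.26 to 0.58) and 0.08 (-0.35 to 0.51).

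**Figure D4:**
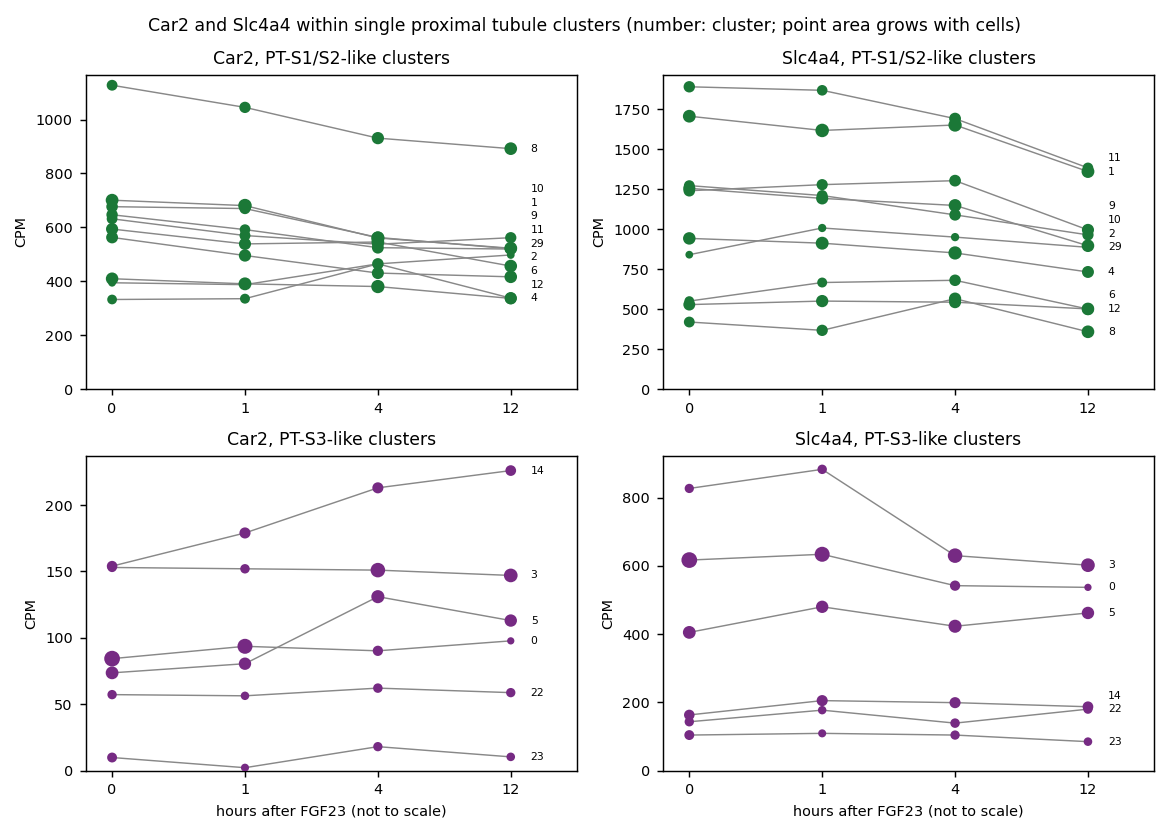
Car2 (left) and Slc4a4 (right) in CPM (vertical axes) in each S1/S2-like cluster (upper) and S3-like cluster (lower) by hours after FGF23 (horizontal axes). Each line is 1 cluster with its number, and points grow with the number of cells. Cluster 8 is the highest for Car2, from 1127 CPM at 0 h to 892 at 12 h, and in S3-like cells the lines of clusters 5 and 14 climb while those of 0 and 3 stay flat.

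Slc9a3 was at 51.6, 58.7, 56.7 and 62.0 CPM in S1/S2-like cells, with all later libraries above 0 h and log2 ratios of 0.19 (0.10 to 0.27), 0.14 (0.05 to 0.22) and 0.26 (0.18 to 0.35). At 12 h it was higher than at 0 h in 10 of 10 S1/S2-like clusters, and at 1 h in 9 of 10. In S3-like cells it was at 36.0, 43.0, 31.9 and 41.4 CPM, with no steady course. Clusters at resolution 1.0 put its S3-like ratio at -0.87 at 4 h and -0.71 at 12 h, and female-called cells, at 3.32 to 9.82 CPM, put it at 0.86 and 1.56.

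Car4 stayed near its 0 h level. In S1/S2-like cells it was at 111, 116, 123 and 106 CPM and in S3-like cells at 260, 244, 284 and 241 CPM, highest at 4 h in both. Over PT-like cells as a whole it was at 194, 178, 196 and 161 CPM, and the 12 h ratio of -0.27 (-0.31 to -0.24) was wider than the -0.06 and -0.11 within the segments, and the share of S3-like cells was 30.7%, 27.2%, 25.3% and 19.7% of all cells. Resolution 1.0 moved the S1/S2-like value at 4 h to 0.64. Car4 also differed by called sex within segments. In S1/S2-like cells female-called cells held 113 to 132 CPM and male-called ones 93.3 to 110, and in S3-like cells the ranges were 37.2 to 61.2 and 249 to 303 CPM. Slc4a4 in S3-like cells spanned 231 to 245 CPM in female-called cells, against 519 to 582 CPM in male-called ones, and Slc9a3 at 3.32 to 9.82 against 35.2 to 47.0 CPM. The ranges were apart in these 4 comparisons, and female-called cells were 2.88% to 5.00% of sex-called S3-like cells. Levels also differed between S3-like clusters. At 0 h Car4 was at 291 and 11.8 CPM and Slc9a3 at 46.2 and 1.77 CPM in clusters 0 and 22. The part of cluster placement in the differences by called sex was not tested.

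**Figure D5:**
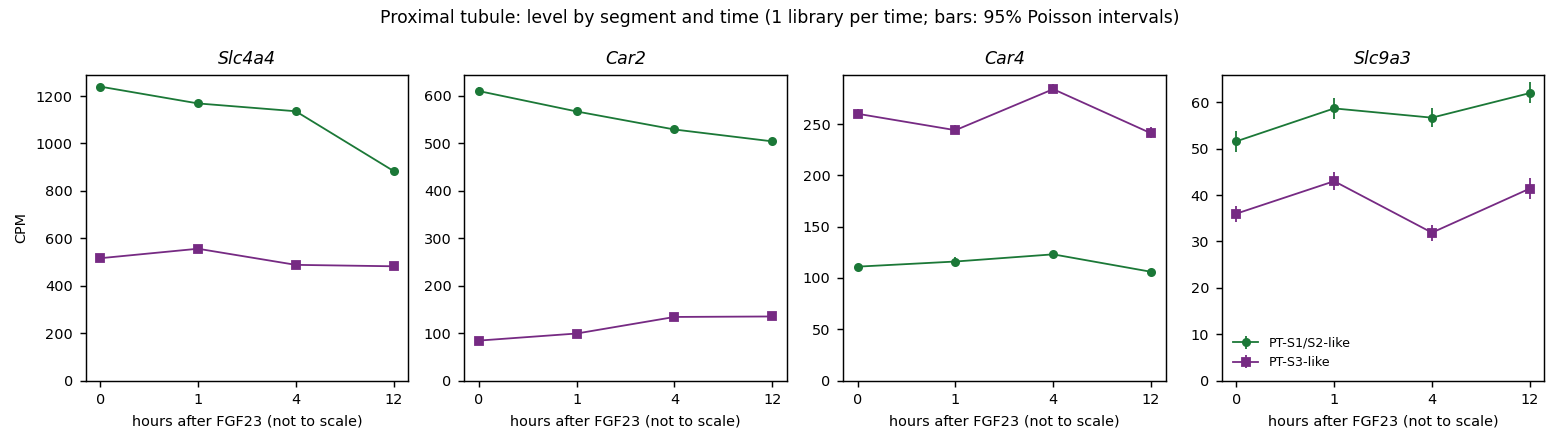
Slc4a4, Car2, Car4 and Slc9a3 in CPM (vertical axes, from 0) in S1/S2-like (green) and S3-like (purple) cells by hours after FGF23 (horizontal axes, not to scale), 1 library per time with exact Poisson 95% intervals. Slc4a4 in S1/S2-like cells drops from 1136 CPM at 4 h to 884 at 12 h, and Car2 goes down in S1/S2-like and up in S3-like cells.

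Of the 53 other listed genes, 36 to 38 had enough UMIs in each proximal segment. In S1/S2-like cells 0 were called at 1 h, 1 higher and 3 lower of 38 at 4 h, and 1 higher and 2 lower of 38 at 12 h. Over all genes 10.5% and 6.58% were called at those times, so the listed genes were called at about the background share. The higher gene was Slc26a6, an apical anion exchanger gene, whose level was 5.20, 11.6 and 11.4 CPM at 0, 4 and 12 h. The carbonic anhydrase genes Car3, Car14 and Car9 were lower: Car3 at 160, then 71.4 at 4 h and 59.3 CPM at 12 h, Car14 at 130, then 74.8 and 77.3 CPM, and Car9 at 4 h only, at 2.17 and 1.11 CPM. In S3-like cells 0 were called at 1 h, beside 2.61% of all genes. At 4 h 3 were higher and 1 lower of 37, beside 10.3%, and at 12 h 3 were higher, beside 8.75% called either way. Slc26a6 was again higher, at 3.19, 10.9 and 8.39 CPM at 0, 4 and 12 h, with log2 ratios of 1.77 (1.51 to 2.04) and 1.39 (1.10 to 1.69). Slc38a3, the glutamine transporter gene of ammonia production, was at 4.41, 8.39 and 9.20 CPM. Pck1, the gluconeogenic enzyme gene, was at 922 and 1425 CPM at 0 and 4 h. Car3 at 4 h and the pump subunit gene Atp6v0c at 12 h were called near 1 CPM. The median log2 ratio of the listed genes at 4 and 12 h was 0.07 and -0.06 in S1/S2-like cells, beside 0.06 and 0.03 over all genes tested, and 0.10 and 0.03 in S3-like cells, beside 0.00 and -0.05.

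In TAL-like cells no member was called, of 5, 4 and 5 with enough UMIs, against 1.38%, 4.17% and 2.84% of genes. Slc9a3 was at 155, 170, 109 and 158 CPM, and the 4 h library stood alone below the others at a log2 ratio of -0.51 (-0.71 to -0.32). It was lower at 4 h in 3 of 3 TAL-like clusters, at 166 and 110 CPM in cluster 16, and the median cell held 116, 147, 0 and 134 CPM. Car4 was at 173, 142, 138 and 140 CPM, lower than at 0 h in all 3 clusters at every time, with ratios of -0.28 (-0.46 to -0.11), -0.33 (-0.51 to -0.15) and -0.31 (-0.49 to -0.14). The clusters differed in size of change: between 0 and 12 h cluster 16 was about level, at 138 and 137 CPM, and cluster 20 went from 228 to 144 CPM.

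In DCT/CNT-like cells 1 of 4, 1 of 5 and 1 of 5 members were called, against 3.77%, 13.6% and 9.87% of genes. Slc4a4 was lower at 1 h and higher at 12 h, at 25.1, 12.7, 19.5 and 39.6 CPM, within the range of the immune-cell classes. The 12 h value came from cluster 13, at 27.7 and 60.7 CPM, with the other two clusters lower than at 0 h. Atp6v1g3 at 4 h was called lower, at 13.3 and 8.52 CPM. Intercalated subtype markers in the same cells were lower too, at 12.0 and 1.65 CPM for type A and 37.4 and 17.6 CPM for type B (4 of 4 detected in each), while the 12 IC markers summed to 1100 and 1124 CPM. Slc4a1 went from 25 to 3 UMIs and Slc26a4 from 14 to 2. The part of these cells or their RNA in the Atp6v1g3 value was not tested. Atp6v1b1 was at 103, 84.9, 69.0 and 99.8 CPM, just inside the limit at 4 h at -0.58 (-0.76 to -0.39). Rhcg was at 238, 258, 213 and 242 CPM, with a 4 h ratio of -0.16 (-0.28 to -0.05). Within clusters it was lower than at 0 h in 3 of 3 at both 4 and 12 h, at 147, 122 and 115 CPM in cluster 13 and 470, 361 and 432 CPM in cluster 21 at 0, 4 and 12 h.

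In PC-like cells 0 of 3, 0 of 4 and 0 of 4 members were called, against 3.62%, 10.6% and 7.61% of genes. Rhcg was at 881, 991, 671 and 905 CPM and Atp6v1b1 at 247, 198, 173 and 220 CPM, both lowest at 4 h, with log2 ratios of -0.39 (-0.52 to -0.27) and -0.51 (-0.76 to -0.27). Car2 was at 1212, 1117, 1150 and 1297 CPM. Atp6v1b1 had its lowest level at 4 h in DCT/CNT-like, PC-like and TAL-like cells, and at 12 h in IC-like cells.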

How the data were processed

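The 4 libraries of mouse kidney cells were read, 1 per group; a 24 h time that the design text names is not analysed here. The authors deposited raw UMI counts per gene and barcode, not normalised, made with Cell Ranger 3.1.0 and the build mm10 per the submitters' processing notes, which also list STAR and Seurat. The annotation release is not given in the sources used here. Gene positions came from GENCODE vM21 by ID (99.6% of 31053 IDs found). Barcodes with under 300 genes or over 50% mitochondrial UMIs were left out. Doublets were called from simulated doublets (7.59% to 8.89% of cells) and removed after clustering.

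Cells of all libraries were clustered with leidenalg 0.10.2 (resolution 1.5, 49 clusters) without the 10 genes or the other acid-base lists. A cluster was named from markers where at least 3 were on (0.333 of the highest cluster level or more, in at least 10% of cells). No name was given where doublet calls passed 50% of the cells or another class lay within 0.5 on the log2 scale. The naming limits were chosen with the clusters in view, and 13 clusters stayed unnamed. Sex was called per cell from sex-linked genes. The 10 genes and the lists were chosen with earlier results of these data known. All 10 are described, with the 3 most alike genes per member and up to 3 higher and 3 lower listed genes per class and time as the rule for further names.

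CPM came from UMIs summed per class and library. Intervals at 95% were exact Poisson for CPM, conditional binomial for the ratio of 2 libraries and Clopper-Pearson for shares. They cover counting error only. For 0 UMIs the limit is 3 counts of the total. Calls over all genes used a pseudocount of 0.5. The steps were tested on simulated data. The result of 1 listed gene at 12 h is not reported here.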

Additional observations from a re-analysis of the deposited data

Results flagged for a closer look

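In 6 cases a gene lay above the 0 h level in one cell group and below it in another at the same time, each with a counting interval away from 0 and a gap of at least 1.5-fold. With 1 library per time, none of these differences was tested. Car2 was lower in S1/S2-like and higher in S3-like proximal tubule cells, at log2 ratios to 0 h of -0.21 and 0.67 at 4 h and of -0.28 and 0.68 at 12 h. Slc9a3 at 4 h was at -0.51 in TAL-like and 0.08 in PT-like cells. Slc4a4 was at -0.98 in DCT/CNT-like and 0.06 in PT-like cells at 1 h, and at 0.66 and -0.21 at 12 h. Car2 at 1 h was at -0.55 in DCT/CNT-like and 0.11 in PT-like cells. The DCT/CNT-like values of Slc4a4 and Car2 rest on class levels of 12.7 to 39.6 and 23.1 to 33.8 CPM. Those class levels are close to the ones in immune-cell classes. Within the class Car2 differed by cluster, at 105 and 55.4 CPM at 0 and 1 h in cluster 21 and at 6.55 and 4.90 CPM in cluster 13.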

How the results depend on the processing

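No paired analysis was possible because each group is 1 library, which holds for the comparisons between times; the contrasts between cell groups are paired by library. For the same reason no replicate could be left out. The called member values in PT-like cells and their segments kept their sign in every alternative run, and those in DCT/CNT-like and B cell-like cells and of the other listed genes had no alternative run. Ratios near 0 did change sign: Slc26a4 in IC-like cells at 1 h, at 0.04, ranged from -0.79 to 0.24 and kept its sign in 5 of 8 alternatives. In IC-like cells 0 members were called at each time. A mitochondrial limit of 25% gave 2, 1 and 1 at 1, 4 and 12 h, kept doublet calls gave 1 at 1 h, and female-called cells alone gave 1 at 1 h and 1 at 4 h. In PT-like cells 1, 0 and 0 members were called. The limit of 25% gave 0 at 1 h and 1 at 12 h, and equal weight per cell gave 0, 1 and 1. Male-called cells gave 0 at 1 h, and female-called cells gave 3 at 4 h and 2 at 12 h. The cause was not tested, and no share over all genes was computed in these runs. Those of female-called cells were Slc26a4 (-1.33), Atp6v1g3 (1.40) and Rhcg (1.89) at 4 h, and Atp6v1g3 (0.69) and Rhcg (1.47) at 12 h. These genes reached no more than 1.38 CPM in PT-like cells as a whole. Slc4a4, Car2, Car4 and Slc9a3 stayed within 1.5-fold there in every alternative run. Over all genes in IC-like cells 128, 322 and 166 were called. A minimum of 30 UMIs gave 840, 1299 and 989, a minimum of 300 UMIs gave 10, 46 and 27, and a 2-fold limit gave 13, 54 and 24. Over all genes in PT-like cells 361, 1294 and 1014 were called. A minimum of 30 UMIs gave 715 at 1 h and 1541 at 12 h, a minimum of 300 UMIs gave 210 at 1 h, and a 2-fold limit gave 92, 355 and 326. The share of IC-like cells with neither exchanger, 11.1%, 10.7%, 13.4% and 12.0% when thinned to 2000 UMIs, was 4.11%, 4.63%, 3.96% and 5.34% without thinning and 35.6%, 21.2%, 30.2% and 27.0% at 1000 UMIs. At 1000 UMIs, Slc26a4 alone was found in 38.4%, 44.6% and 52.4% at 0, 4 and 12 h, and both genes in 0% at 4 h. The addition of the unnamed cluster to the IC-like class was chosen after seeing the data. Depth limits the shares of cells, and the number of IC-like cells limits their ratios.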

Other observations

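In B cell-like cells the level of Slc4a4 was 139, 20.9, 26.7 and 50.2 CPM in order of time, from 79, 11, 7 and 46 UMIs. The control library stood highest. The PT markers, 7 of 7 detected, summed there to 795, 500, 264 and 649 CPM, also highest in the control. Their part in the Slc4a4 level was not tested.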
